A study of Mus musculus with 24 samples.

Results

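The transcripts described here encode the proteins of the cytosolic ribosome. Members were the genes whose single annotated symbol begins with Rpl or Rps and a digit, or is Rplp0, Rplp1, Rplp2 or Rpsa, leaving out pseudogene symbols, the S6 kinases and ribosomal protein binding partners. The rule found 62 of the 19938 genes with a probe set of 1 symbol, 38 of the large and 24 of the small subunit, and used no measured value except to choose the probe set with the highest mean where a gene had several. A further 27 protein-coding symbols that fit the rule, Rpl3 and Rps27 among them, had no probe set of their own and were not used here. The rule goes by symbols, so it also takes in copies and paralogs such as Rpl32l, Rps23rg1, Rps4l, Rpl10l and Rpl39l.

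RNA came from quadriceps and soleus of male mice aged 40 to 42 days on a mixed background of C57BL/6J and, as the labels write it, 1219S6/SvEvTac. In the nebulin conditional knockout (cKO) both copies of the nebulin gene Neb, which encodes a giant protein of the sarcomere's thin filament, were the conditional allele, and the mice were hemizygous for an MCK-Cre transgene, a Cre recombinase under a muscle creatine kinase promoter. The controls had the same homozygous conditional allele without MCK-Cre. Each of the 4 groups (quadriceps cKO, quadriceps control, soleus cKO, soleus control) held 6 Affymetrix arrays, called biological replicates by the submitters, who describe the quadriceps as much smaller in cKO and the soleus as not significantly smaller. The Cre acts in cells that use this promoter, so other cells of the muscle kept an intact gene.

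A ribosome has a small subunit, which reads the messenger RNA, and a large subunit, which joins amino acids, and both are built in the nucleolus from ribosomal RNA and about equal amounts of many small proteins. The mRNAs of these proteins are among the most abundant in most cells, and mammalian ones usually begin with a run of pyrimidines, the 5' TOP element, through which the growth-controlling kinase complex mTORC1 acts on their translation. Striated muscle is known for a ribosomal protein of its own, Rpl3l, a paralog of the widely expressed large-subunit protein Rpl3. The arrays measured RNA of whole muscle, where fewer cells of a type and less RNA per cell cannot be told apart. Many ribosomal protein genes have processed copies elsewhere in the genome, so that a probe set may read more than 1 copy, and levels of single members are uncertain in this respect.

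The start regions of 4 members are shown because 3 of them, Rpl19, Rps10 and Rps15, had the smallest p-values of the soleus comparison, while Rpl3l was the member that fell in both muscles. Each run goes 5' to 3' on the gene's strand from 100 bases before the RefSeq transcript start to 30 after it (GRCm38.p6). The 2 annotated starts of Rpl3l are shown, and for the other genes only the first start listed. Capitals mark the ETS-type motif CCGGAAG or its reverse complement CTTCCGG, and runs of a C and at least 5 further pyrimidines that begin between 10 bases before the start and the window's end.
Rpl19, chr11:98026610-98026739 (plus strand): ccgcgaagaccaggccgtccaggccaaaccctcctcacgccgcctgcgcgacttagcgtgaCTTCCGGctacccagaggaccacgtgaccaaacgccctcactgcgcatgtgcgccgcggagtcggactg
Rps10, chr17:27635215-27635344 (minus strand): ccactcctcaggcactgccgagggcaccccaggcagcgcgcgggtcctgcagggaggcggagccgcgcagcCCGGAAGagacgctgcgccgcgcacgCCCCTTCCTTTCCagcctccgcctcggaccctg
Rps15, chr10:80292331-80292460 (plus strand): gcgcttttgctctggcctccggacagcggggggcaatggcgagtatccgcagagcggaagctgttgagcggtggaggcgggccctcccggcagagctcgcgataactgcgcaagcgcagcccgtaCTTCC
Rpl3l, chr17:24727726-24727855 (plus strand): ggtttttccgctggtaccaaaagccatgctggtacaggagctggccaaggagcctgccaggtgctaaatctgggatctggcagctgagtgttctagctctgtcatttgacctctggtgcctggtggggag
Rpl3l, chr17:24732585-24732714 (plus strand): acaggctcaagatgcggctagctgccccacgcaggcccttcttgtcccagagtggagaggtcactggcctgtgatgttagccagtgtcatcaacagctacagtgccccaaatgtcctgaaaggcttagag
The run of Rps15 goes on past the end of the stretch shown. Windows of 300 bases (250 before to 50 after the start) were available for 50 of the 62 members, with 59 windows in all, and a gene was counted if any of its windows held the motif. On either strand, CCGGAAG stood in 19 of these 50 members (38%), against 9.93% of 27025 genes with such a window. The pyrimidine run on the gene's strand, searched from 10 bases before to 50 after the start, stood in 41 of the 50 members (82%), against 42.9% of all genes. On the opposite strand the same search found it in 26% of members, against 47.7% of all genes. Rpl19, Rpl3l and the 2 others shown all had the run. In Rpl3l it lay downstream of a stretch printed, and in Rpl19 outside the stretch printed. A match describes these letters only.

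Of the 62 members 61 passed the filter on dim genes, and Rpl39l, a paralog known from testis, lay below the dim limit on all 24 arrays. On the log2 scale of the deposited intensities 42 of the 61 averaged above 9 and 8 below 6, while the median gene of an array lay between 5.89 and 6.15. Rpl21, Rps15 and Rplp1 had the highest means (11.96, 11.47 and 11.24), and Rpl12, Rps23rg1 and Rpl32l the lowest (4.61, 4.70 and 5.11). Probe sets differ in affinity, so these are signals and not relative amounts of the proteins' mRNAs. The SD pooled over the 4 groups had a median of 0.18 over the members and 0.17 over all genes kept, and was largest for Rps3a1 (0.44) and Rps28 (0.35). Of the 218 probe sets that name 1 of the 62 members, 182 differed upward between cKO and control in quadriceps and 215 in soleus. Among the 39 members with several probe sets, all pointed upward for 34 in quadriceps and for 38 in soleus. In quadriceps 0 of 9 pointed upward for Rpl36, 0 of 3 for Rpl24 and 1 of 13 for Rpl23a. Some probe sets of a gene carried identical values, as the 3 of Rpl41 did, so they are not all separate readings. The share of all probe sets that differed upward was not counted.

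**Figure D1:**
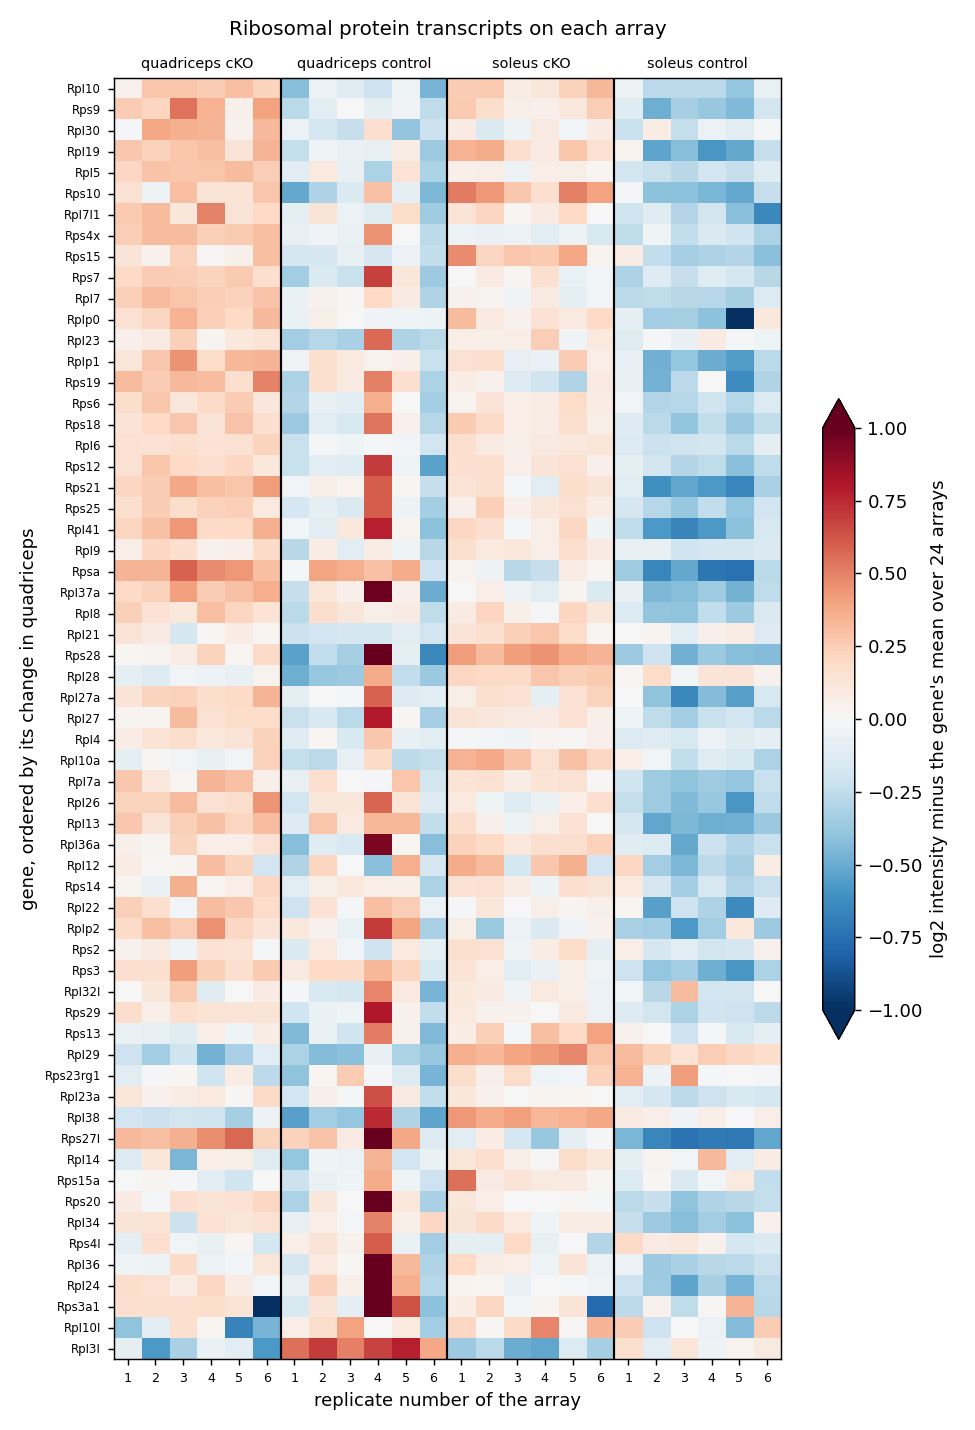
Log2 intensity of 61 ribosomal protein transcripts on each of 24 arrays, shown as the difference from the gene's mean over all arrays, clipped at 1 either way; genes run down the page by their change in quadriceps and columns are replicates within the 4 groups. Most rows are redder in both cKO groups than in their controls, Rpl3l in the bottom row runs the other way, and quadriceps control 4 stands apart.

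Any pair of arrays within a group correlated with r between 0.963 and 0.993 over genes. Neb itself checked the labels, with 10.50 to 11.16 in quadriceps cKO against 12.11 to 12.50 in quadriceps controls, and 10.94 to 11.48 in soleus cKO against 12.04 to 12.56 in soleus controls. Some control arrays stood apart in the ribosomal protein transcripts. The median over the 61 members was 9.80 to 9.93 on the 6 quadriceps cKO arrays, with a median of 9.88, and 9.43 to 10.40 on the quadriceps controls, with a median of 9.82. In soleus it was 9.59 to 9.71 in cKO, with a median of 9.65, and 9.19 to 9.65 in controls, with a median of 9.28. The SD of these array medians was 0.05 in each cKO group, 0.33 in quadriceps controls and 0.18 in soleus controls. Quadriceps control 4 had the median of 10.40 and was the highest array of its group for 41 of 61 members, and quadriceps control 6 was the lowest for 37. Soleus control 1 was the highest of its group for 36 members. These 3 arrays also had the lowest quality weights that limma estimated over all genes, 0.21, 0.39 and 0.39, so that results are given with and without them where they matter.

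**Figure D2:**
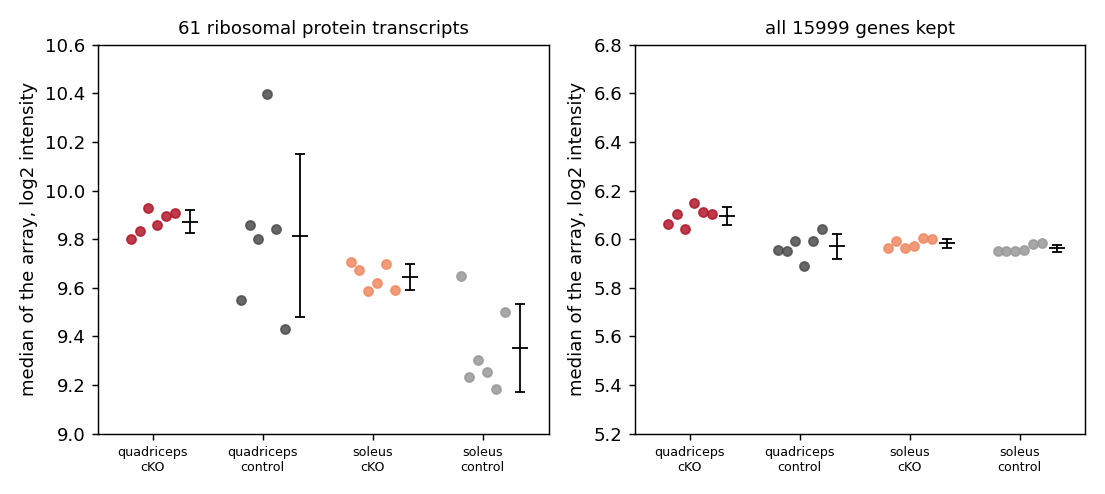
Median log2 intensity of each array, over the 61 ribosomal protein transcripts on the left and over all 15999 genes kept on the right, by group; points are arrays, and dashes with bars are group means with SD. Both panels span 1.6 log2 units; the ribosomal protein medians of controls range more widely than those of cKO, up to 10.40 on quadriceps control 4.

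The first comparison asked how these transcripts differ in quadriceps, the muscle described as smaller in cKO. Of the 61 members 19 were higher in cKO and 1 was lower at an adjusted p under 0.05 (limma with Benjamini-Hochberg adjustment over all genes). Over all 15999 genes 22.3% were called higher and 17.7% lower. The median change of the members was 0.18 on the log2 scale, with 50 of 61 positive, and the median change of all genes was -0.01. By subunit, 13 of 37 large-subunit and 6 of 24 small-subunit members were higher.

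Rpl10, a large-subunit protein that joins late in assembly and is needed before the subunits can meet, led the members that rose in quadriceps. Its log2 intensity ran from 10.98 to 11.24 in cKO (median 11.20), against 10.47 to 10.89 in controls (median 10.77), a change of 0.45 (SE 0.08, 1.37-fold, limma adjusted p = 7.91e-05). The groups did not overlap. Rps9, which lines the channel where the mRNA enters the small subunit, read 10.54 to 11.04 in cKO (median 10.79) and 10.22 to 10.49 in controls (median 10.39), a change of 0.43 (SE 0.08, adjusted p = 0.00016 in limma). Rpl5, which carries the 5S ribosomal RNA into the large subunit and can bind the p53 regulator Mdm2, read 10.70 to 10.80 in cKO (median 10.76) and 10.17 to 10.62 in controls (median 10.39). Its change was 0.36 (SE 0.07, adjusted p = 0.000178 in limma), again without overlap. Rpl19, which reaches across to the small subunit, changed by 0.38, Rpl30 by 0.39, Rpl7 by 0.27 and Rpl6 by 0.25, all large-subunit proteins with adjusted p between 0.000925 and 0.00234 in limma. All cKO arrays lay above all controls for 8 members (Rpl10, Rps9, Rpl5, Rpl6, Rpl19, Rpl7, Rps15 and Rplp0), a pattern that 10.1% of all genes showed. Rplp0, the base of the stalk that recruits elongation factors, was among these but did not pass the test (0.27, SE 0.12, limma adjusted p = 0.0788). Rps6, the small-subunit protein phosphorylated by the S6 kinases, rose by 0.26 (SE 0.09, limma adjusted p = 0.0167).

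The count in quadriceps moved with 1 array and with the scaling. Without quadriceps control 4, 36 members were higher and 1 lower, against 20.8% of all genes higher, and the median change was 0.23. Without it, all cKO arrays lay above all remaining controls for 29 of 61 members, against 11% of all genes. Without quadriceps control 6 the median change was 0.11, with 15 members higher and 2 lower, against 24.5% of all genes higher and 20.8% lower. Centring each array on its 75th percentile gave 7 members higher and 2 lower, against 16.7% of all genes higher and 27.9% lower. Centring on the median over the genes kept gave 5 higher and 2 lower, against 14.7% and 35.6% of all genes. Centring over the genes kept moved the median change of all genes by -0.12. It brought the members' median change to 0.05, with 39 of 61 positive. Such centring shifts all genes of an array alike. The members' median therefore stays 0.19 above that of all genes by construction, which says nothing about the scaling. Rpl10, Rps9, Rpl5, Rpl30 and Rpl19 were called higher in quadriceps under each of the 28 alternative settings tried for them.

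**Figure D3:**
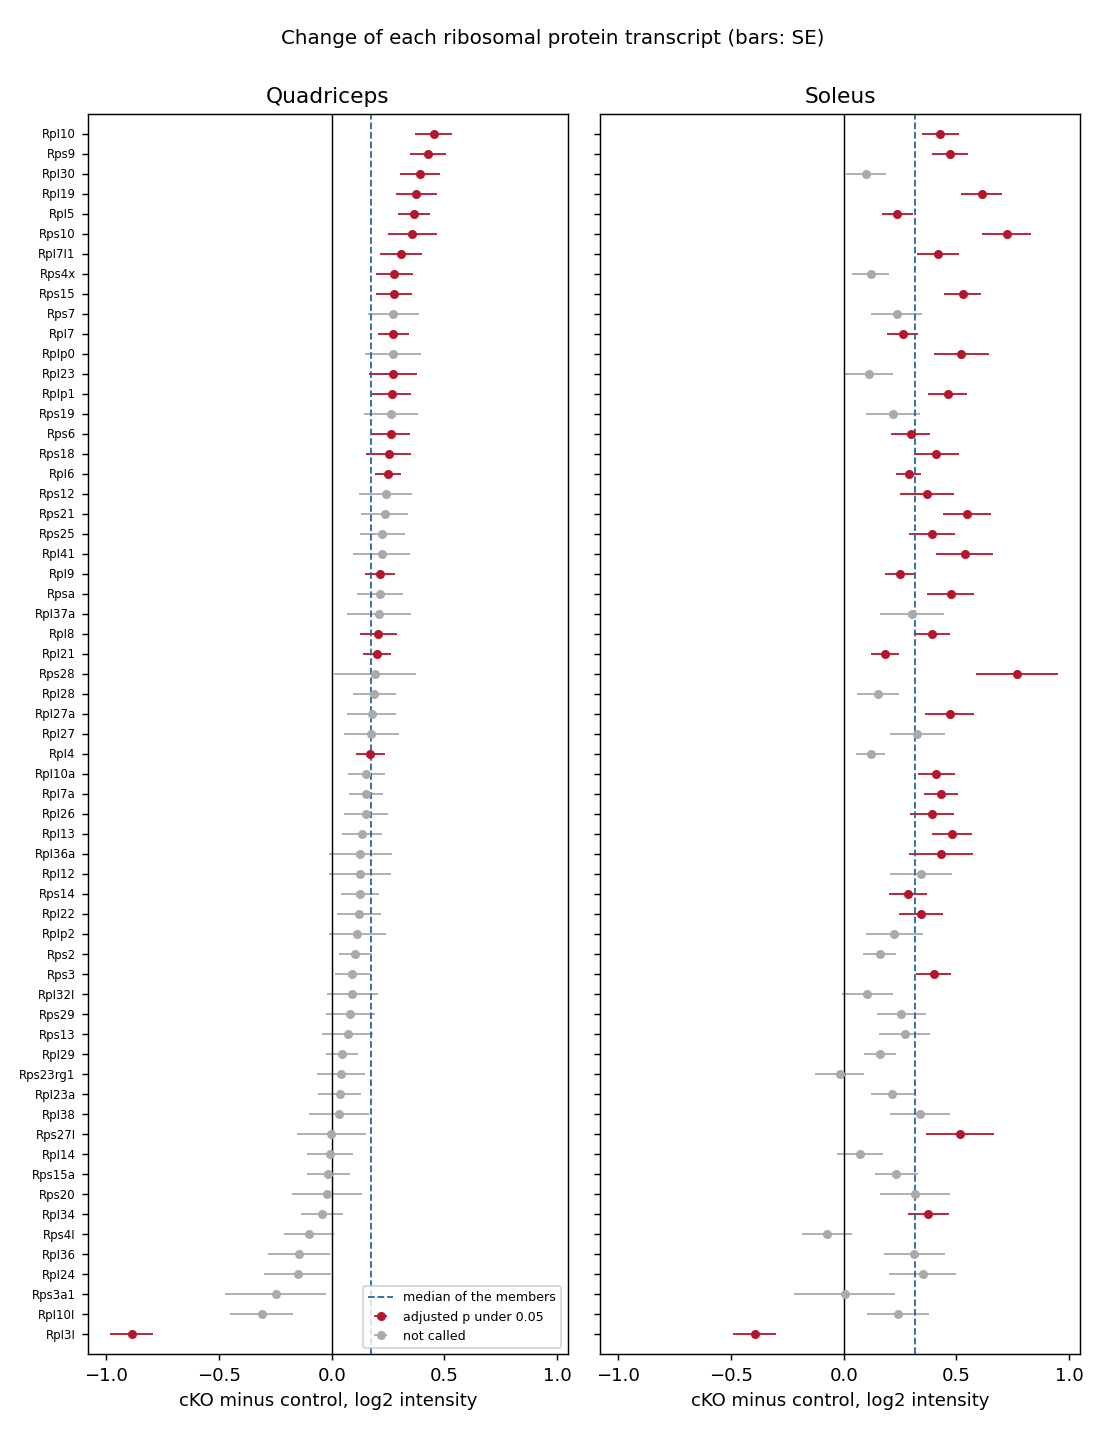
Change (cKO minus control, log2 intensity) of each of the 61 ribosomal protein transcripts in quadriceps (left) and soleus (right), ordered from the highest to the lowest change in quadriceps; bars are SE, red marks an adjusted p under 0.05 and the dashed line is the members' median. The median is 0.18 in quadriceps and 0.32 in soleus, and Rpl3l lies at -0.89 and -0.40.

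In soleus 33 of the 61 members were higher in cKO and 1 was lower, where 13.2% of all genes were called higher and 9.94% lower (limma, adjusted p under 0.05). The members' median change was 0.32 and that of all genes -0.02, and 58 of 61 members were positive. By subunit, 20 of 37 large-subunit and 13 of 24 small-subunit members were higher. All cKO arrays lay above all controls for 34 members, against 7.82% of all genes. Without soleus control 1 there were 41 such members, against 11% of all genes, and 35 were called higher.

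Rps10, a protein of the small subunit's head near the mRNA entry, read 9.36 to 9.71 in soleus cKO (median 9.61), against 8.68 to 9.17 in soleus controls (median 8.78). It rose 1.65-fold (log2 change 0.72, SE 0.11, limma adjusted p = 1.44e-05), and the groups did not overlap. Rpl19 read 10.96 to 11.25 in cKO (median 11.10) and 10.29 to 10.91 in controls (median 10.40), a change of 0.61 (SE 0.09, limma adjusted p = 1.39e-05). Rps15, a small-subunit protein that reaches toward the decoding centre, read 11.50 to 11.94 in cKO (median 11.73) and 11.05 to 11.54 in controls (median 11.17). The groups overlapped through soleus control 1 at 11.54, and the change was 0.53 (SE 0.08, limma adjusted p = 1.85e-05). The largest fitted change was that of Rps28, a small-subunit protein at the mRNA exit, at 0.77 (SE 0.18, limma adjusted p = 0.0025), chosen for mention after its values were seen. It read 9.49 to 9.62 in cKO and 8.69 to 8.96 in controls. In quadriceps Rps28 changed by 0.19 (limma adjusted p = 0.408), and by 0.46 without quadriceps control 4 (limma adjusted p = 5.87e-05). Rps9, Rpl13, Rplp1, Rpl7a and Rpl10 rose by 0.43 to 0.48, each with every cKO array above every control, for Rplp1 by less than the second decimal shows.

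The acidic stalk gave 1 member that rose in both muscles. Rplp1 read 11.16 to 11.49 in soleus cKO (median 11.35), against 10.68 to 11.16 in soleus controls (median 10.81). In quadriceps it read 11.36 to 11.69 in cKO (median 11.54) and 11.02 to 11.40 in controls (median 11.28), a change of 0.27 (SE 0.09, limma adjusted p = 0.0152). Rplp0 rose in soleus (0.52, SE 0.12, limma adjusted p = 0.0023), where soleus control 5 lay lowest at 9.67. The probe set of Rplp2, a dim one at 5.05 to 6.32 over all arrays, gave 0.11 in quadriceps and 0.22 in soleus and passed in neither (limma adjusted p = 0.493 and 0.221).

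A shared set of 15 members rose in both muscles, where 8.44% of all genes were called higher in both, and 1 member, Rpl3l, fell in both, where 5.15% of all genes did. They were Rpl10, Rpl19, Rpl21, Rpl5, Rpl6, Rpl7, Rpl7l1, Rpl8, Rpl9, Rplp1, Rps10, Rps15, Rps18, Rps6 and Rps9, which is 78.9% of the members called higher in quadriceps and 45.5% of those called higher in soleus. A further 4 (Rpl23, Rpl30, Rpl4 and Rps4x) passed in quadriceps and not in soleus, 18 passed in soleus and not in quadriceps, and 23 passed in neither. This split moved with the scaling and with 1 array. With 75th percentile centring 7 members were higher in quadriceps, against 16.7% of all genes. Centring over the genes kept gave 5, against 14.7%. No more members than these could be higher in both muscles under those settings. Without quadriceps control 4, 31 members were higher in both muscles, the 15 among them, 5 in quadriceps alone and 14 in soleus alone. Of the 18, 9 then passed in quadriceps too. The share of all genes higher in both muscles was not counted without that array. How far the rise from 15 to 31 is particular to these members is thus not known. The soleus call of Rpl21 was lost in 10 of 28 settings and that of Rpl5 in 1. In quadriceps the calls of Rps10, Rpl7l1, Rpl21 and Rplp1 were each lost in 4 of 28 settings. That of Rps15 was lost in 2, and those of Rpl6 and Rpl7 in 1 each. Other probe sets of Rps10 gave 0.21 and 0.11 in quadriceps, against 0.36 for the one used. The 2 comparisons share no array, but same-numbered muscles may come from the same mice, which the labels do not state.

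Rpl3l, on chromosome 17 from 24727826 to 24736143 (GRCm38.p6) and read by 1 probe set, ran against the other members. In quadriceps it read 8.91 to 9.42 in cKO (median 9.27), against 9.87 to 10.26 in controls (median 10.10), a difference of -0.89 on the log2 scale (SE 0.10, 1.85-fold lower, limma adjusted p = 3.98e-08). In soleus it read 8.96 to 9.35 in cKO (median 9.14), against 9.38 to 9.65 in controls (median 9.55), a difference of -0.40 (SE 0.10, 1.32-fold lower, limma adjusted p = 0.00288). Every cKO array lay below every control array in both muscles, a pattern seen for 6.06% of all genes in quadriceps and 4.96% in soleus. Quadriceps and soleus had means of 9.20 and 9.13 in cKO, against 10.08 and 9.53 in controls. The call held under each of the 28 alternative settings, with a change between -1.01 and -0.83 in quadriceps and between -0.46 and -0.36 in soleus. The paralog Rpl3 had no probe set of its own and was not used here, so the pair was not compared.

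**Figure D4:**
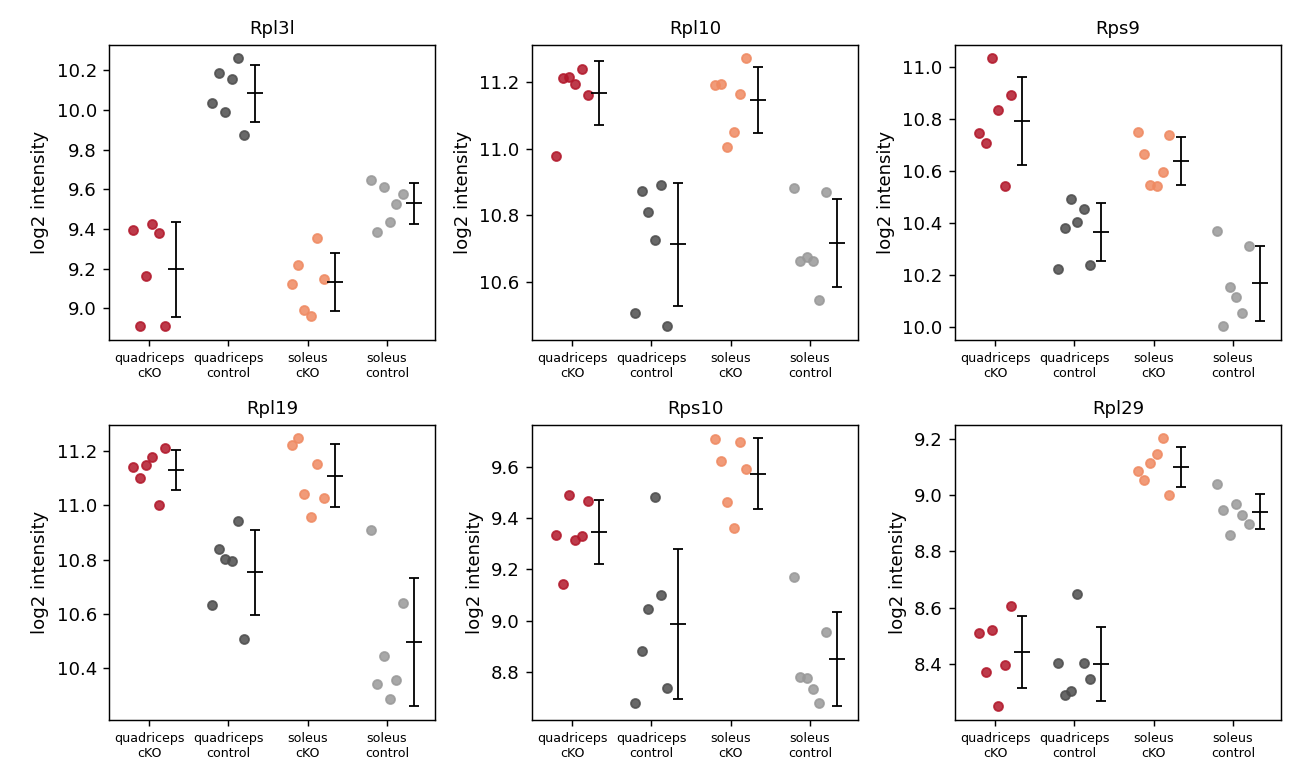
Log2 intensity of Rpl3l, Rpl10, Rps9, Rpl19, Rps10 and Rpl29 on each array by group; points are arrays, dashes with bars are means with SD, and each panel has its own axis, which does not start at 0. Rpl3l is lower and Rpl10, Rps9 and Rpl19 higher on every cKO array than on every control of the muscle, and Rpl29 separates the muscles.

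The other paralogs gave no common direction. Rpl7l1, a paralog of Rpl7 that works in the assembly of the large subunit in human cells, read 7.34 to 7.72 in quadriceps cKO and 6.87 to 7.41 in quadriceps controls, a change of 0.31 (SE 0.09, limma adjusted p = 0.0109). In soleus it read 7.22 to 7.44 in cKO and 6.58 to 7.10 in controls, a change of 0.42 (SE 0.09, limma adjusted p = 0.00137). It thus rose in both muscles, as Rpl7 did. Rps27l, a paralog of Rps27 and a known target of p53, changed by 0.52 in soleus (SE 0.15, limma adjusted p = 0.0137) with no overlap between the groups. In quadriceps its change was 0.00 (SE 0.15, limma adjusted p = 0.989), with quadriceps control 4 at 9.69 and the other controls at 8.68 or below. Without that array it was 0.20 (SE 0.09, limma adjusted p = 0.0831). Rpl10l, a paralog of Rpl10 known from testis, changed by -0.31 in quadriceps and 0.24 in soleus, Rps4l by -0.10 and -0.08, Rps23rg1 by 0.04 and -0.02, and Rpl32l by 0.09 and 0.10. None of these 4, all with means below 6, passed in either muscle (limma adjusted p between 0.0743 and 0.928), whereas Rps4x, the X-linked parent of Rps4l, rose by 0.28 in quadriceps (SE 0.08, limma adjusted p = 0.00809). The other probe set of Rps4l, with a mean of 5.70 against 5.75, gave 0.07 in quadriceps and 0.11 in soleus, so its direction is uncertain. Settings under which Rpl10l was called lower in quadriceps included 75th percentile centring, centring over the genes kept, array weights and leaving out the 3 lowest-weight arrays.

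The next question was whether the cKO change differed between the muscles. The change in soleus exceeded that in quadriceps for 49 of 61 members, and the median of the quadriceps change minus the soleus change was -0.18, against 0.00 for all genes. Member by member, 2 passed the test of the difference, both lower, and 0 higher, where 4.89% of all genes were called lower and 7.39% higher. Rpl3l fell further in quadriceps, by 0.49 on the log2 scale (SE 0.14, limma adjusted p = 0.0172), and this held under each of 39 alternative settings. The large-subunit member Rpl34 changed by -0.04 in quadriceps and 0.38 in soleus, a difference of -0.42 (SE 0.13, limma adjusted p = 0.0359). It read 8.20 to 8.58 in quadriceps cKO and 8.34 to 8.92 in quadriceps controls, and 8.38 to 8.61 in soleus cKO and 7.99 to 8.47 in soleus controls. Without quadriceps control 4 that difference was -0.34 (limma adjusted p = 0.0507), and it missed the threshold in 11 of the 39 settings. With the animal as a random block, 6 members had a lower change in quadriceps: Rpl10l, Rpl13, Rpl34, Rpl3l, Rpl7a and Rps3. Under that block 7.39% of all genes were called lower and 11.1% higher. Without quadriceps control 4 the members' median difference was -0.09.

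Between the control muscles, 24 of 61 members were lower and 3 higher in soleus than in quadriceps, where 18.3% of all genes were called lower and 15.2% higher (limma, adjusted p under 0.05). The median of soleus minus quadriceps was -0.22 over the members and 0.03 over all genes. Rpsa, a small-subunit protein also known as a laminin receptor, read 8.82 to 9.30 in soleus controls (median 8.99), against 9.36 to 9.96 in quadriceps controls (median 9.89), a difference of -0.74 (SE 0.10, limma adjusted p = 3.19e-06). Rps27l differed by -1.01, 2.01-fold lower in soleus (SE 0.15, limma adjusted p = 1.03e-05). Without quadriceps control 4 its difference was -0.80 (SE 0.09, limma adjusted p = 1.70e-07). Rpl3l differed by -0.56, Rps3, which sits where the mRNA enters, by -0.53, and Rpl13 by -0.52 (limma adjusted p between 7.81e-06 and 5.68e-05). For 6 members all soleus controls lay below all quadriceps controls, against 7.73% of all genes, and for 1 member all lay above, against 3.94%. That member was Rpl29, a large-subunit protein, at 8.86 to 9.04 in soleus controls (median 8.94) and 8.29 to 8.65 in quadriceps controls (median 8.37), a difference of 0.54 (SE 0.07, 1.46-fold, limma adjusted p = 1.08e-06). Its cKO changes were 0.04 in quadriceps and 0.16 in soleus and passed in neither. This comparison uses the same control arrays as both cKO comparisons, so its values and theirs are not independent. Median centring gave 38 members lower and 1 higher, where 4176 of 15999 genes were lower and 1196 higher. The median of all genes was then -0.07. Without quadriceps control 4 the members' median was -0.12.

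Cytosolic ribosomal proteins were set beside the 77 mitochondrial ribosomal protein genes, which serve the organelle's own ribosome. Over all genes 22.3% were called higher and 17.7% lower in quadriceps cKO, and 13.2% higher and 9.94% lower in soleus cKO. In quadriceps 1 of the 77 was higher and 47 were lower in cKO, with a median change of -0.31. The 61 cytosolic members had 19 higher and 1 lower there. In soleus 5 mitochondrial members were higher and 22 lower, with a median of -0.12, against 33 and 1 cytosolic. The median of the cytosolic members was thus above, and that of the mitochondrial members below, the median of all genes in both muscles. In soleus minus quadriceps controls the medians of both families were below 0, at -0.22 for cytosolic and -0.26 for mitochondrial members.

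**Figure D5:**
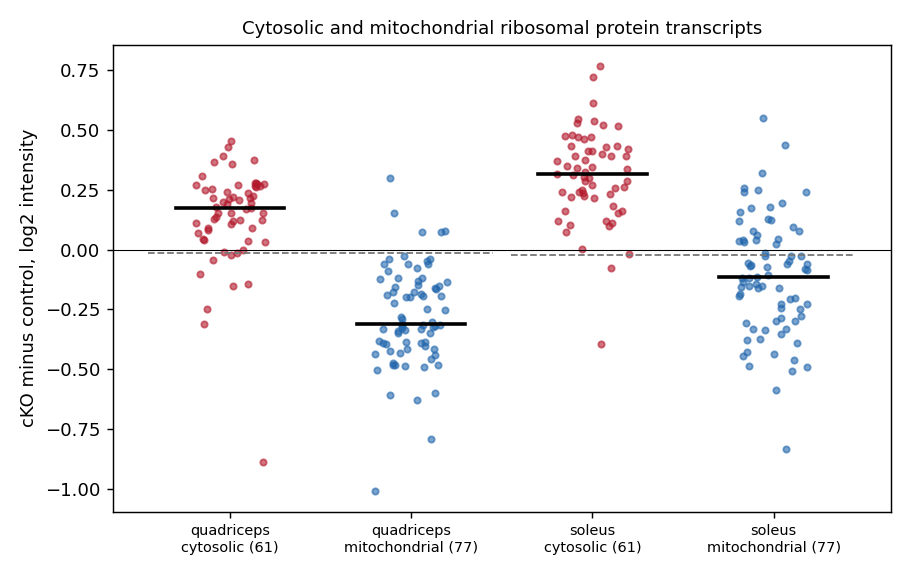
Change (cKO minus control, log2 intensity) of 61 cytosolic and 77 mitochondrial ribosomal protein transcripts in each muscle; points are genes, spread sideways for legibility, black bars are medians and dashed grey lines the median of all 15999 genes. The medians are 0.18 and -0.31 in quadriceps and 0.32 and -0.12 in soleus.

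The machinery that builds ribosomes is counted from lists made for the purpose. The counts of these lists stand beside 22.3% of all genes higher and 17.7% lower in quadriceps, and 13.2% higher and 9.94% lower in soleus. Of 68 genes of ribosome assembly and rRNA processing 28 were higher and 3 lower in quadriceps cKO, and 24 were higher and 1 lower in soleus cKO, with median changes of 0.15 and 0.17. Rrp1b and Ncl (nucleolin), nucleolar proteins, and Nop58, a core protein of methylation-guiding snoRNPs, rose in quadriceps by 0.64, 0.41 and 0.50. In soleus Tsr1, which matures the small subunit, rose by 0.51, Rrp12 by 0.58, Bop1 by 0.55 and the nucleolar helicase Ddx21 by 0.42 (limma adjusted p between 4.21e-05 and 0.000223). Of 12 genes of RNA polymerase I and its factors 2 were higher and 1 lower in quadriceps, and 3 higher and 0 lower in soleus. The factor Taf1d fell in quadriceps (-0.92, limma adjusted p = 0.000157), and the subunits Polr1d and Polr1a rose in soleus (0.55 and 0.38). Fau, a small-subunit protein made as a fusion with a ubiquitin-like protein and outside the symbol rule, rose by 0.25 in quadriceps and 0.37 in soleus (limma adjusted p = 0.0145 and 0.000927). Of 12 ribosomal protein chaperones and importins 3 were higher and 1 lower in quadriceps, and 4 higher and 0 lower in soleus. In quadriceps the shares higher of the polymerase and chaperone lists were near or below that of all genes.

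Of 34 initiation factors 9 were higher and 8 lower in quadriceps cKO (median -0.03), near the shares of all genes, and 15 higher and 2 lower in soleus cKO (median 0.11). The eIF3 subunits Eif3l and Eif3d rose in both muscles, Eif3l by 0.52 and 0.80 and Eif3d by 0.50 and 0.60 in quadriceps and soleus. Eif4a1, the helicase that unwinds mRNA leaders, rose by 0.84 in quadriceps (limma adjusted p = 1.72e-08). Of 9 elongation factors 3 were higher and 1 lower in quadriceps, and 3 higher and 0 lower in soleus. Eef1a1, the form of the aminoacyl-tRNA carrier used outside adult muscle and neurons, read 12.05 to 12.29 in quadriceps cKO and 10.86 to 11.37 in quadriceps controls (change 1.09, SE 0.09, limma adjusted p = 4.02e-10). In soleus Eef1a1 rose by 0.77 (SE 0.09, limma adjusted p = 3.57e-07). Eef1a2, the form of adult muscle and neurons, fell in quadriceps (-0.39, SE 0.07, limma adjusted p = 6e-05) and changed by -0.04 in soleus (SE 0.07, limma adjusted p = 0.726). That change of Eef1a2 differed between the muscles (-0.35, limma adjusted p = 0.0184).

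Of 25 regulators of mTORC1 and of 5' TOP mRNAs, 7 were higher and 6 lower in quadriceps cKO, and 5 higher and 4 lower in soleus cKO, with medians of 0.03 and 0.07. These shares were not far from those of all genes, and the genes named next are among the 4 of smallest p in 1 muscle or both. Myc, a transcription factor that drives ribosome production, rose by 0.55 in quadriceps and 1.09 in soleus (limma adjusted p = 0.00146 and 4.47e-07). Sesn3, one of the sestrins, which restrain mTORC1, rose by 1.84 and 1.05, and Ddit4l, an inhibitor of mTORC1, fell by 0.99 and by 1.54. Eif4ebp2, which holds back the cap-binding factor, fell by 0.65 in quadriceps, and Larp1b, a relative of the TOP-binding protein Larp1, by 0.71 in quadriceps and by 0.27 in soleus. Of 5 genes of the S6 kinase family 1 was higher in quadriceps (Rps6ka3, 0.26), and 1 was higher (Rps6kb2, 0.24) and 1 lower (Rps6ka5, -0.45) in soleus.

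Markers of other cells were counted in the same muscles. Their counts stand beside 22.3% of all genes higher and 17.7% lower in quadriceps. In soleus 13.2% of all genes were higher and 9.94% lower. Of 18 macrophage markers 14 were higher and 0 lower in quadriceps cKO and 12 higher and 0 lower in soleus cKO, with median changes of 0.68 and 0.52. Their summed linear intensity was 2406 to 2962 in quadriceps cKO, against 1284 to 2100 in quadriceps controls, and 1600 to 2352 in soleus cKO, against 1159 to 1510 in soleus controls. Each of the 18 was above the dim limit on at least 1 array of every group. Satellite cell markers gave 9 of 12 higher in quadriceps and 6 of 12 in soleus, fibroblast markers 9 and 6 of 11, and genes of immature muscle 8 and 10 of 10, with 0 lower in each. Summed intensities in quadriceps cKO and controls were 5188 to 5990 and 2961 to 4462 for satellite cells, 14238 to 17065 and 9248 to 15383 for fibroblasts, and 8297 to 10586 and 3639 to 8079 for immature muscle. In soleus cKO and controls they were 5777 to 6237 and 4322 to 5517, 11151 to 14921 and 11378 to 13360, and 7690 to 9820 and 1486 to 3715. Of 11 endothelial markers 0 were called in quadriceps and 8 were lower in soleus, and fast-fibre markers were lower for 7 of 12 in quadriceps and 9 of 12 in soleus. Slow-fibre markers were higher for 11 of 11 in quadriceps, and for 4 of 11 in soleus with 1 lower. In quadriceps cKO and controls the endothelial sums were 2165 to 2842 and 2364 to 3854, the fast-fibre sums 54423 to 63663 and 70785 to 78104, and the slow-fibre sums 24076 to 32307 and 6712 to 15376. In soleus cKO and controls they were 2249 to 2633 and 3007 to 4523, 26438 to 32549 and 33946 to 48600, and 52294 to 52869 and 37626 to 51846. Of 8 adipocyte markers 5 were higher in quadriceps and 1 was lower in soleus. Of 8 pericyte and smooth muscle markers 2 were higher in quadriceps, and 1 was higher and 4 lower in soleus. Their sums were 2580 to 2934 in quadriceps cKO and 2156 to 3154 in controls, and 2341 to 2654 in soleus cKO and 2820 to 3708 in controls. Of 8 tendon markers 2 were higher and 1 lower in quadriceps, and 2 higher and 4 lower in soleus. Their sums overlapped between cKO and controls in both muscles. In quadriceps the shares higher of the pericyte and tendon lists were near that of all genes. The 6 lymphocyte and 5 neutrophil markers tested had 0 calls in either muscle. The part of these cells in the ribosomal protein changes was not tested.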

How the data were processed

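Values are the intensities the authors deposited on a linear scale, 1 per probe set and array, made per the submitters' processing notes with Affymetrix Expression Console and RMA (background correction, quantile normalization, probe-set summary) on build mm10. Software versions and batches are not stated in the labels. They were turned to log2 before any test, with a lowest value of 1.76. Of 35557 probe sets 21789 have 1 symbol, 1621 have several and 12147 have none listed; the last 2 kinds were left out. The probe set with the highest mean stood for a gene. Genes above the array's 30th percentile (3.51 to 3.72) on at least 6 arrays were kept, 15999 of 19938.

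Group means of the 4 groups were estimated in a single limma fit over 24 arrays (R 4.3.3, limma 3.58.1, two-sided, Benjamini-Hochberg over all genes kept, threshold 0.05). Precision is limited by how many arrays there are, with a median SE of 0.10 for a member's cKO change. The fit was tested on simulated data with independent noise per gene and array. That test cannot show how the fit handles arrays that stand apart or muscles of the same mouse. The members, gene lists and naming rule (smallest p per comparison, paralogs with their parents, stalk proteins, extreme means, up to 4 genes per list) were chosen with earlier results of these data known. With group means removed, same-numbered quadriceps and soleus arrays correlated between 0.22 and 0.45 in cKO and between 0.16 and 0.31 in controls. Each of 6 pairs was over 0.1, and they were paired as 1 animal in a blocked alternative. Same-numbered arrays of different genotypes, hence different mice, ran from 0.04 to 0.32 within soleus and from -0.15 to 0.17 within quadriceps. Quadriceps control with soleus cKO ran from 0.04 to 0.27, and quadriceps cKO with soleus control from -0.04 to 0.28. These correlations thus do not settle the pairing, and the labels give quadriceps cKO 4 as 40 and soleus cKO 4 as 41 days old. Alternatives covered scaling, filters, probe sets, weights, pseudocount, blocks and leaving out arrays. Promoter windows and gene positions come from RefSeq (GRCm38.p6).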

Additional observations from a re-analysis of the deposited data

Results flagged for a closer look

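Among 116 groups of 6 arrays, 1 for each of 29 named members and each muscle and genotype, 10 had an array whose gap to its nearest neighbour was a larger share of the group's range than Dixon's test allows, where chance flags about 5%. In cKO these were Rpl10 at 10.98 on quadriceps cKO 1 (nearest 11.16), Rpl34 at 8.20 on quadriceps cKO 3 (nearest 8.54), Rpl6 at 10.53 on quadriceps cKO 6 (nearest 10.48) and the dim Rpl39l at 3.35 on quadriceps cKO 2 (nearest 2.87). Among quadriceps controls 3 fell on replicate 4, namely Rpl29 at 8.65 (nearest 8.40), Rps27l at 9.69 (nearest 8.68) and Rps4x at 10.40 (nearest 9.95). Among soleus controls they were Rps15 at 11.54 on replicate 1 (nearest 11.22), Rplp2 at 5.73 on replicate 5 (nearest 5.30) and Rpl39l at 2.46 on replicate 6 (nearest 2.62).

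The cKO change differed between quadriceps and soleus, by an interaction contrast in limma, for Rpl3l (-0.49, with every cKO array below every control in both muscles) and for Rpl34 (-0.42).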

How the results depend on the processing

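Over the settings run for each comparison (28 for each muscle's cKO change, 39 for the difference, 27 for the control muscles) no named result that passed its test changed direction. Of those that did not pass, Rpl34, Rps27l and Rps4l turned positive in quadriceps without quadriceps control 4 (0.03, 0.20 and 0.01). In quadriceps the members higher numbered 7 with 75th percentile centring, 5 with centring over the genes kept and 33 when the 3 lowest-weight arrays were dropped, and 15 to 36 with 1 array left out (36 without quadriceps control 4). Those lower numbered 2 under these 3 settings and with array weights, Rpl10l joining Rpl3l, and 1 to 2 with 1 array left out (2 without quadriceps control 6 or quadriceps cKO 3). Of all 15999 genes 2678, 2348 and 3711 were higher under the same 3 settings, and 4460, 5695 and 3186 lower. Without quadriceps control 4, 3331 of all genes were higher. In soleus 27 to 47 members were higher over all settings, with 45 without quadriceps control 4, and 1 was lower. Quantile normalization gave the 27, where 2063 of all genes were higher. Array weights and leaving out the 3 arrays each gave 47, where 2872 and 2636 of all genes were higher. For the difference between the muscles, 4 members were lower with median centring or the lowest-mean probe set. There were 6 with kept-gene centring or with the animal as a random replicate block. Array weights gave 16 (2 higher), and leaving out the 3 arrays gave 14 (2 higher). Of all genes 783 were lower in the main fit. Under these 6 settings, in the order named, 920, 773, 1598, 1182, 1545 and 1567 were lower. Higher were 1183 in the main fit, 2025 with array weights and 2108 without the 3 arrays. With 1 array left out, 1 to 9 were lower and 0 to 3 higher. There were 9 lower without quadriceps control 6 and 7 without soleus control 1, against 1064 and 1046 of all genes. Only Rpl3l was lower without quadriceps control 4 (3 higher, Rpl23, Rpl30 and Rps4x), any of soleus controls 2 to 5 or any of soleus cKO 1 to 3. For soleus minus quadriceps in controls, median centring gave 1 member higher and 38 lower, against 1196 and 4176 of all genes. Array weights gave 5 higher, against 2771 of all genes. With 1 array left out, 2 to 5 members were higher (5 without quadriceps control 4, against 2497 of all genes) and 19 to 32 lower. The replicate block changed no other count by over 1.5 times: 17 higher in quadriceps, 33 in soleus and 29 lower between control muscles. Of all genes 3551, 2119 and 3278 were called so. Kept-gene centring, the lowest-mean probe set, leaving out the 3 arrays and leaving out the copies were chosen after seeing the data. Where a cause is not plain from the setting, the cause was not tested.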
